A study of Caenorhabditis elegans with 18 samples.

Results

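The genes described here encode proteins that bind, store or respond to metals in Caenorhabditis elegans: the metallothioneins mtl-1 and mtl-2, the ferritins ftn-1 and ftn-2, and the genes cdr-1, cdr-2, cdr-4 and cdr-5 of the cdr (cadmium-responsive) family. They were chosen by name among the probe sets of the array, the groups of short probes that each measure 1 transcript. A gene was found where the array's annotation gave a probe set its symbol and no other. By this rule 7 of the 8 genes were found, on 10 of the 22625 probe sets, out of 17118 genes with a probe set of their own. The gene cdr-5 had no such probe set and was not analysed here. Whether a probe set with several symbols measures it was not checked. The genes mtl-2 (3 probe sets) and ftn-2 (2 probe sets) had more than 1, and the probe set with the highest mean signal stands for the gene unless another is named.

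RNA of whole worms of the wild-type strain N2, grown at 20°C on NGM plates with E. coli OP50, was measured on 18 Affymetrix arrays, 1 per sample. The control group (n = 5) was left untreated. The H2O2 group (n = 5) was exposed at the L4 larval stage to 0.3 mM hydrogen peroxide, an oxidant, for 2 h. The TRF group (n = 4) was given a tocotrienol-rich fraction, a mixture of vitamin E compounds, throughout the life cycle. The TRF+H2O2+TRF group (n = 4) was given TRF before and after an H2O2 exposure, from hatching up to adult day 3, and its H2O2 dose and duration are not repeated in the labels. The labels give neither the TRF dose and carrier nor the age at which worms of the control, H2O2 and TRF groups were collected, so a difference in age between groups cannot be told apart from the treatment.

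The values are MAS5 signals, which are probe intensities on a linear scale, and the mean signal of each array without its top and bottom 2% was 500.1. Every array correlated with the other 17 at a mean r of 0.955 to 0.971, and no array stood apart. Fold changes and tests are on the log2(signal + 1) scale, from limma fitted over 13529 probe sets, with standard errors (SE) and p-values adjusted over all of these by the Benjamini-Hochberg method. Probe sets named with _s_at or _x_at, which here are those of mtl-2, ftn-1, ftn-2 and cdr-4, can by Affymetrix's naming hold probes that match more than 1 transcript, and what they share was not tested. A probe set passed where the adjusted p was under 0.05. Replicates are not stated to be separate cultures, so the tests see only how much these samples differed among themselves, which may be technical, and their precision is limited by how few arrays there are. In RNA from whole worms, fewer cells of a type and less RNA per cell cannot be told apart.

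Metallothioneins are small cysteine-rich proteins that bind zinc, copper and cadmium, and ferritins form shells in which iron is stored in an unreactive form. The cdr genes take their name from a response to cadmium, and they encode a family of proteins related to glutathione S-transferases. Much of the metal response of the worm takes place in the intestine, where metallothionein transcription depends on the GATA factor ELT-2, and ftn-1 is raised by iron and repressed when iron is low through the hypoxia factor HIF-1. Free iron turns hydrogen peroxide into the more reactive hydroxyl radical, which links iron storage to the oxidant used here.

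The ferritin gene ftn-1 had its highest signals in worms given TRF, on average 1.86 times control, and none of the 7 genes passed the test in any comparison. The gene cdr-2 was lower in every TRF array than in every control array, and cdr-1 was lower in every TRF+H2O2+TRF array than in every H2O2 array. The metallothioneins mtl-1 and mtl-2 had their highest signal in replicate 3 of every group.

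**Figure D1:**
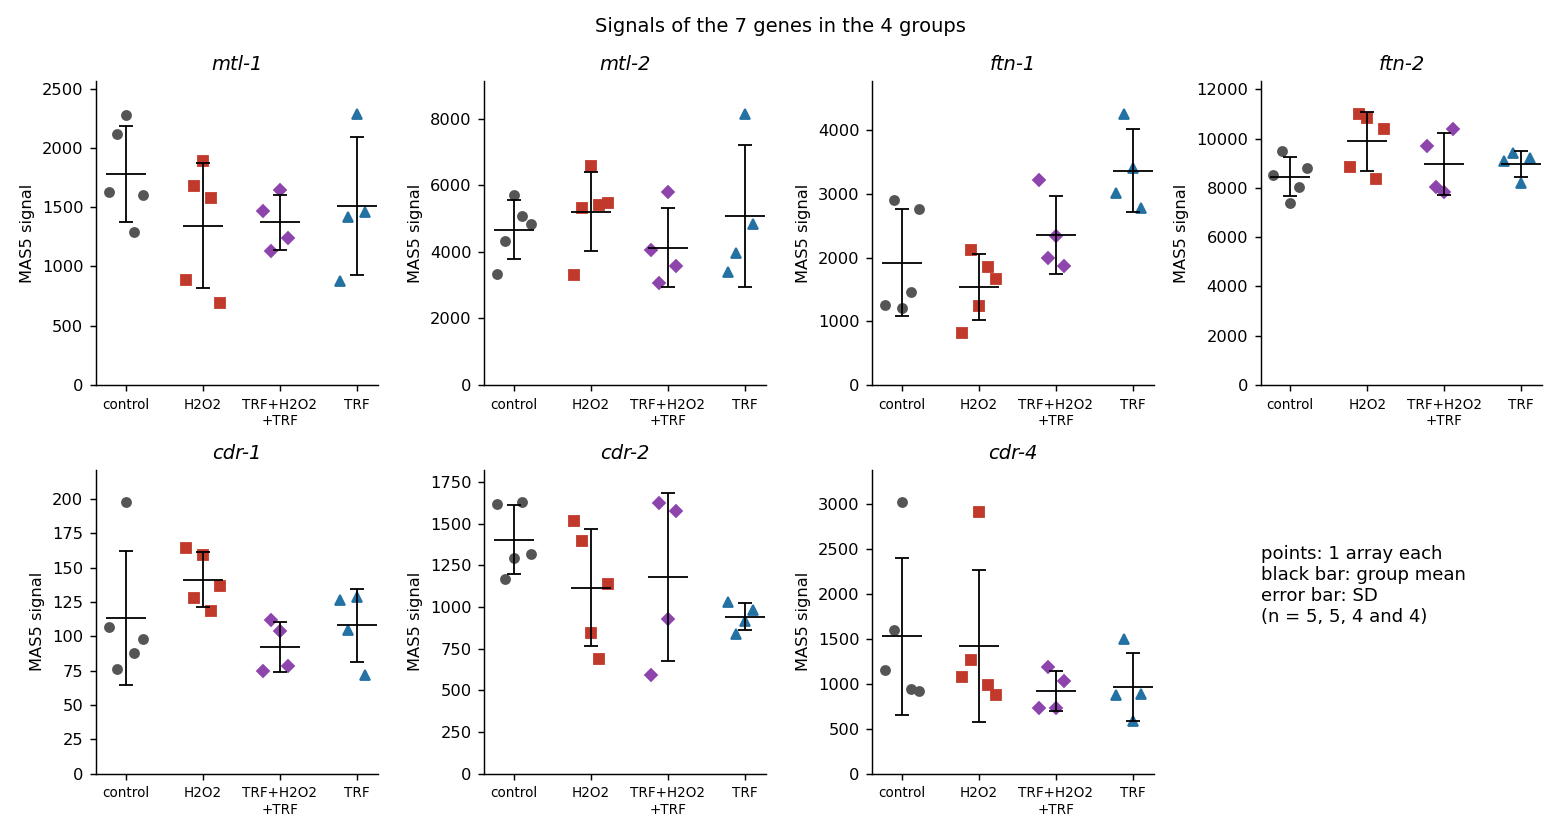
MAS5 signal (linear scale, starting at 0) of each of the 7 genes in the control, H2O2, TRF+H2O2+TRF and TRF groups, with 1 point per array, the group mean as a black bar and the SD as the error bar (n = 5, 5, 4 and 4). The 4 TRF arrays of ftn-1 sit between 2773 and 4263, above all H2O2 arrays, and the 4 TRF arrays of cdr-2 sit between 839.9 and 1032, below all control arrays.

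Of the ferritins, ftn-1, the iron-induced and mainly intestinal subunit, is measured by 1 probe set. Its signals were 1256, 2911, 1216, 1457 and 2766 in control replicates 1 to 5, and 821, 2115, 1245, 1855 and 1665 in H2O2. They were 3018, 4263, 3409.7 and 2773 in TRF replicates 1 to 4, and 3217, 1998, 2347 and 1866 in TRF+H2O2+TRF. All TRF arrays but replicate 4 lay above all control arrays, and replicate 4 lay between the 2 high controls (replicates 2 and 5) and nearly level with the lower of these. The group means ran from 1540.4 ± 512 (SD, n = 5) in H2O2 through 1921 ± 844 (n = 5) in control and 2357 ± 608 (n = 4) in TRF+H2O2+TRF to 3366 ± 653 (n = 4) in TRF. In this order only the last step, of 1009 signal units, was larger than the larger of both SDs, and each group overlapped the next.

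Between TRF and control, ftn-1 had a log2 fold change of 0.90 ± 0.269 (SE), or 1.86-fold with a 95% interval of 1.24 to 2.80. By p it stood at rank 50 of 13529 in limma, with an adjusted p of 0.995. Across this comparison 0.00739% of probe sets passed (1 of 13529), and 0 of the 7 genes were among them.

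In worms exposed to H2O2, ftn-1 again had a higher mean with TRF around the exposure than without it. The log2 fold change of TRF+H2O2+TRF against H2O2 was 0.66 ± 0.255 (SE), or 1.57-fold with an interval of 1.07 to 2.31 (rank 97 by p, adjusted p = 1.0). The ranges overlapped, since TRF+H2O2+TRF replicates 2 and 4 lay below H2O2 replicate 2. In this comparison 0% of probe sets passed.

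Both comparisons of TRF-fed with unfed worms thus gave ftn-1 a higher mean, and their average was computed after its values had been seen. Over all 18 arrays the log2 fold change of this average was 0.78 ± 0.204 (SE), with a 95% interval of 0.35 to 1.20 on the log2 scale, or 1.71-fold. It stood at rank 24 of 13529 by p in limma with an adjusted p of 0.648, and 0% of probe sets passed. The interaction term, which compares the H2O2 difference with and without TRF, was -0.24 ± 0.407 (SE) for ftn-1 (adjusted p = 1.0), with 0% of probe sets past the threshold.

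With both treatments the mean ftn-1 signal was lower than with TRF alone. TRF+H2O2+TRF against TRF gave -0.53 ± 0.184 (SE), a ratio of 0.694 with an interval of 0.523 to 0.920 (rank 52 by p, adjusted p = 1.0), and 0% of probe sets passed. With the replicate number fitted as a block this difference was -0.53 ± 0.159 (SE), with an adjusted p of 0.630 in limma. The ranges overlapped through TRF+H2O2+TRF replicate 1, the highest of its group, while the other 3 arrays of that group lay below all TRF arrays. TRF+H2O2+TRF against control gave 0.37 ± 0.278 (SE), also with overlapping ranges, and again 0% of probe sets passed. H2O2 against control gave -0.28 ± 0.301 (SE), with 0% of probe sets past the threshold. The widest separation of ftn-1 was between TRF and H2O2, which the series design does not compare: the lowest TRF array (2773) lay above the highest H2O2 array (2115). TRF and H2O2 did not overlap in 1.47% of probe sets (199 of 13529), and this pair of groups was looked at after the values were seen.

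The second ferritin gene, ftn-2, encodes the more widely expressed subunit. Its signals were 8516, 9486, 7380.1, 8038 and 8823 in control replicates 1 to 5, and 8857, 11016, 10843, 8356 and 10380.5 in H2O2. They were 9689, 8023, 7836 and 10401 in TRF+H2O2+TRF replicates 1 to 4, and 9088, 9430.4, 8208 and 9196 in TRF. H2O2 replicates 2, 3 and 5 were above all control arrays, while H2O2 replicates 1 and 4 lay inside the control range.

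The mean of ftn-2 was 8449 ± 795 (SD, n = 5) in control, 8981 ± 535 (n = 4) in TRF, 8987 ± 1258 (n = 4) in TRF+H2O2+TRF and 9890.4 ± 1208 (n = 5) in H2O2. No neighbouring groups in this order differed by more than the larger SD. H2O2 against control gave a log2 fold change of 0.22 ± 0.105 (SE), or 1.17-fold with an interval of 0.998 to 1.37 (rank 343 by p, adjusted p = 1.0). The H2O2 array was the higher one in 5 of 5 pairs with the same replicate number, for ftn-2 alone of the 7 genes. The log2 difference was 0.06 in each of the pairs numbered 1 and 4. How many of all probe sets had 5 of 5 was not counted. With the replicate number fitted as a block the difference was 0.22 ± 0.0761 (SE), with an adjusted p of 0.373 in limma. TRF left ftn-2 at 0.09 ± 0.0890 (SE) relative to control, which turned to -0.00677 with arrays centred on their medians. Its second probe set correlated with the first at r = 0.331 over the 18 arrays. That probe set gave 0.16 ± 0.123 (SE) for H2O2 against control, with the H2O2 array higher in 4 of 5 same-number pairs. The 2 probe sets had opposite signs in TRF+H2O2+TRF against H2O2, at -0.14 and 0.04.

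**Figure D2:**
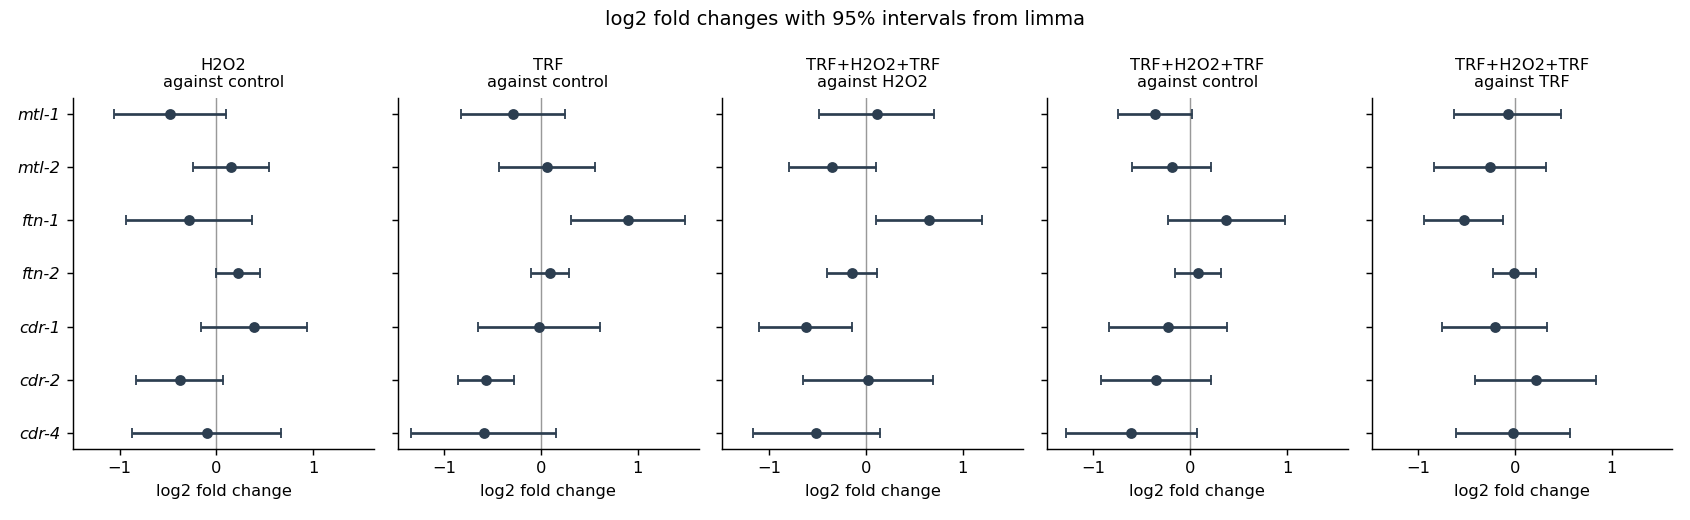
log2 fold changes of the 7 genes (points) with their 95% intervals from limma (bars) in the 5 comparisons of 2 groups, on a shared log2 axis with a line at no change. The replicate number is not part of these fits. The intervals of ftn-1 lie off the line in 3 panels, that of cdr-2 in TRF against control and that of cdr-1 in TRF+H2O2+TRF against H2O2, and none of the 7 genes passed after adjustment in any panel.

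Of the metallothioneins, mtl-1 is a gene raised by cadmium, by heat and by the transcription factor DAF-16. Its signals were 1625, 2114, 2282, 1291 and 1601 in control replicates 1 to 5, and 889.5, 1679, 1893, 1575 and 690.3 in H2O2. They were 1471, 1132, 1644 and 1237 in TRF+H2O2+TRF replicates 1 to 4, and 876, 1418, 2289.7 and 1462 in TRF. Replicate 3 was the highest array of every group, and H2O2 replicates 1 and 5 with TRF replicate 1 were the 3 lowest of all. The means were 1345 ± 525 (SD, n = 5) in H2O2, 1371 ± 230 (n = 4) in TRF+H2O2+TRF, 1512 ± 583 (n = 4) in TRF and 1783 ± 406 (n = 5) in control, with every step smaller than the larger SD and every neighbouring range overlapping.

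Relative to control, mtl-1 had log2 fold changes of -0.48 ± 0.266 (SE) in H2O2, -0.29 ± 0.246 in TRF and -0.36 ± 0.177 in TRF+H2O2+TRF. These 3 share the control arrays. Their adjusted p-values in limma were 1.0, 0.995 and 1.0. Between TRF+H2O2+TRF and H2O2, mtl-1 differed by 0.12 ± 0.274 (SE), and this sign turned without H2O2 replicate 5 (-0.0985), which had the lowest mtl-1 signal of all arrays.

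The second metallothionein gene, mtl-2, is expressed in the intestine after metal exposure. Its signals were 3344, 4331, 5707, 5083 and 4833 in control replicates 1 to 5, and 3295, 5306, 6571, 5394 and 5481 in H2O2. They were 4063, 3066, 5794 and 3579 in TRF+H2O2+TRF replicates 1 to 4, and 3385, 3960.0, 8150.5 and 4827 in TRF. Replicate 3 was again the highest array of each group, and all 4 ranges overlapped. The means were 4126 ± 1184 (SD, n = 4) in TRF+H2O2+TRF, 4659 ± 887 (n = 5) in control, 5081 ± 2131 (n = 4) in TRF and 5209 ± 1187 (n = 5) in H2O2, with no step beyond the larger SD.

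H2O2 against control gave mtl-2 a log2 fold change of 0.15 ± 0.181 (SE), with the H2O2 array higher in 4 of 5 same-number pairs. In the mtl-2 probe set with the lowest mean signal it was higher in 2 of 5. TRF against control gave 0.06 ± 0.228 (SE), which turned to -0.0349 with arrays centred on their medians, and TRF+H2O2+TRF against H2O2 gave -0.34 ± 0.207 (SE). The adjusted p in limma was 1.0, 0.995 and 1.0. The 3 probe sets of mtl-2 correlated with one another at r = 0.877 to 0.981 over the 18 arrays. All 3 had the highest array of the H2O2, TRF+H2O2+TRF and TRF groups in replicate 3. In control the probe set with the lowest mean signal of the 3 had its highest array in replicate 5 (3415, beside 2845 in replicate 3).

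Leaving out single arrays moved the H2O2 differences of both metallothioneins. That of mtl-1 was -0.26 without H2O2 replicate 5, and that of mtl-2 ran from 0.03 (control replicate 1 left out) to 0.30 (H2O2 replicate 1 left out). The interaction terms were 0.41 ± 0.403 (SE) for mtl-1 and -0.41 ± 0.338 for mtl-2, each with an adjusted p of 1.0 in limma.

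Of the cdr genes, cdr-1 encodes a lysosomal membrane protein and is strongly induced by cadmium in intestinal cells. Its 18 signals ran from 72.0 to 198, not far above the filter on low signals, which lay at a geometric mean signal of 47.0 over the arrays. They were 107, 76.0, 198, 88.3 and 98.4 in control replicates 1 to 5, and 164, 128, 159, 118.5 and 136 in H2O2. In TRF+H2O2+TRF replicates 1 to 4 they were 75.0, 112, 104 and 78.7, and in TRF 127, 104, 129 and 72.0. Every TRF+H2O2+TRF array lay below every H2O2 array, while control replicate 3 (198) lay above all arrays of all groups.

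The means of cdr-1 ran from 92.3 ± 18.3 (SD, n = 4) in TRF+H2O2+TRF through 108 ± 26.4 (n = 4) in TRF and 113 ± 48.5 (n = 5) in control to 141 ± 19.8 (n = 5) in H2O2, with no step beyond the larger SD. TRF+H2O2+TRF against H2O2 gave a log2 fold change of -0.62 ± 0.222 (SE), a ratio of 0.651 with an interval of 0.467 to 0.908. It stood at rank 48 of 13529 by p in limma, and the adjusted p was 1.0. Of the 7 genes 1 had groups that did not overlap in this comparison, against 0.961% of all probe sets. H2O2 against control gave 0.39 ± 0.253 (SE), and without control replicate 3 it was 0.61 (adjusted p = 1.0 in limma). TRF against control gave -0.02 ± 0.291 (SE), whose sign turned to 0.20 without the same array.

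The gene cdr-2 lies between its family members cdr-6 and cdr-3 in the RefSeq annotation of assembly WBcel235. Its signals were 1619, 1166, 1296, 1628 and 1317 in control replicates 1 to 5, and 1032, 839.9, 916 and 983 in TRF replicates 1 to 4. All TRF arrays were below all control arrays, and they were close together, with a mean of 943 ± 83.3 (SD, n = 4) against 1405 ± 208 (n = 5) in control. TRF against control gave a log2 fold change of -0.57 ± 0.134 (SE), a ratio of 0.675 with an interval of 0.551 to 0.826. It stood at rank 17 of 13529 by p in limma, with an adjusted p of 0.909. In 1 of the 7 genes, cdr-2, the groups did not overlap, against 1.18% of all probe sets.

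In H2O2 the cdr-2 signals were 1517, 1395, 844, 689.6 and 1138, and in TRF+H2O2+TRF they were 592, 1622, 930.2 and 1577. Both groups were split, with H2O2 replicates 3, 4 and 5 and TRF+H2O2+TRF replicates 1 and 3 below all control arrays and the others inside the control range. The means were 1117 ± 352 (SD, n = 5) and 1180.5 ± 504 (n = 4), and in the order TRF, H2O2, TRF+H2O2+TRF, control no step exceeded the larger SD. H2O2 against control gave -0.38 ± 0.206 (SE), and TRF+H2O2+TRF against H2O2 gave 0.03 ± 0.309, both with an adjusted p of 1.0 in limma. TRF+H2O2+TRF replicates 2 and 4 lay above all TRF arrays. The interaction, which tests whether TRF acted on cdr-2 differently with and without H2O2, was 0.59 ± 0.368 (SE) with an adjusted p of 1.0.

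The gene cdr-4 is a family member that responds to several metals besides cadmium. Its signals were 1158, 1592, 3017, 946 and 918 in control replicates 1 to 5, and 1076, 1265, 2908, 986 and 870.4 in H2O2. In TRF+H2O2+TRF replicates 1 to 4 they were 732, 1183, 729 and 1031, and in TRF 878, 1493, 590.4 and 884. Replicate 3 was the highest array of control and of H2O2, and the lowest of TRF+H2O2+TRF and of TRF. The ranges of all 4 groups overlapped, with or without the arrays numbered 3.

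The means of cdr-4 were 919 ± 226 (SD, n = 4) in TRF+H2O2+TRF, 961 ± 380 (n = 4) in TRF, 1421 ± 844 (n = 5) in H2O2 and 1526 ± 876 (n = 5) in control, with no step beyond the larger SD. TRF against control gave a log2 fold change of -0.59 ± 0.344 (SE), and TRF+H2O2+TRF against H2O2 gave -0.51 ± 0.305, with adjusted p-values of 0.995 and 1.0 in limma. Without control replicate 3 the first became -0.31, and without H2O2 replicate 3 the second became -0.21. The average of both, computed as for ftn-1, was -0.55 ± 0.254 (SE), a ratio of 0.683 with an interval of 0.473 to 0.987 (rank 615 by p in limma, adjusted p = 0.867). Of the 7 genes, ftn-1 and cdr-4 were the 2 with an unadjusted p under 0.05 in this average, beside 5.26% of all probe sets (712 of 13529). For cdr-4 it was no longer under 0.05 in 9 of the 18 fits that left out 1 array, with -0.41 without control replicate 3 and -0.40 without H2O2 replicate 3, and for ftn-1 it stayed under 0.05 in all 18.

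In none of the comparisons did all 7 genes move one way. In each of the 3 comparisons that the series design names (H2O2 with control, TRF with control, TRF+H2O2+TRF with H2O2), 3 had a higher and 4 a lower mean log2 signal. The median log2 fold changes were -0.10, -0.02 and -0.14, beside -0.00190, 0.04 and 0.02 over all probe sets tested. Set against control, TRF+H2O2+TRF had 2 higher and 5 lower, and against TRF 1 higher and 6 lower, with medians of -0.23 and -0.07 beside 0.02 and -0.01. In the average over both TRF comparisons 1 was higher and 6 lower, where 57.8% of all probe sets were higher. The median there was -0.14 beside 0.03. Groups did not overlap in 0 of the 7 genes for H2O2 against control (0.473% of all probe sets), for TRF+H2O2+TRF against control (1.03%) and for TRF+H2O2+TRF against TRF (1.09%). At an unadjusted p under 0.05 limma counted 317 of 13529 probe sets (2.34%) in H2O2 against control, with 0 of the 7 genes among them. These groups were taken as paired by replicate number, from correlations in these same data. With the number as a block the count over all probe sets rose from 317 to 1287 of 13529. Among these were 2 of the genes, mtl-1 at -0.48 ± 0.176 (SE) and ftn-2 at 0.22 ± 0.0761. The adjusted p-values of these 2 genes in limma were 0.414 and 0.373. The unblocked count was 474 (3.50%) with 2 of the genes (ftn-1 and cdr-2) in TRF against control, and 302 (2.23%) with 2 (ftn-1 and cdr-1) for TRF+H2O2+TRF against H2O2. Against control TRF+H2O2+TRF had 384 (2.84%) with 0 of the genes, and against TRF 198 (1.46%) with 1 (ftn-1). TRF+H2O2+TRF and TRF were also taken as paired. With the block their count rose from 198 to 874 of 13529 probe sets, with 1 of the genes (ftn-1). The interaction had 154 (1.14%) with 0, and the average over both TRF comparisons 712 (5.26%) with 2. The methods' t-test, an unpaired test of 2 groups that the series design names, also left 0 of the 7 genes past the adjusted threshold in the 5 comparisons.

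**Figure D3:**
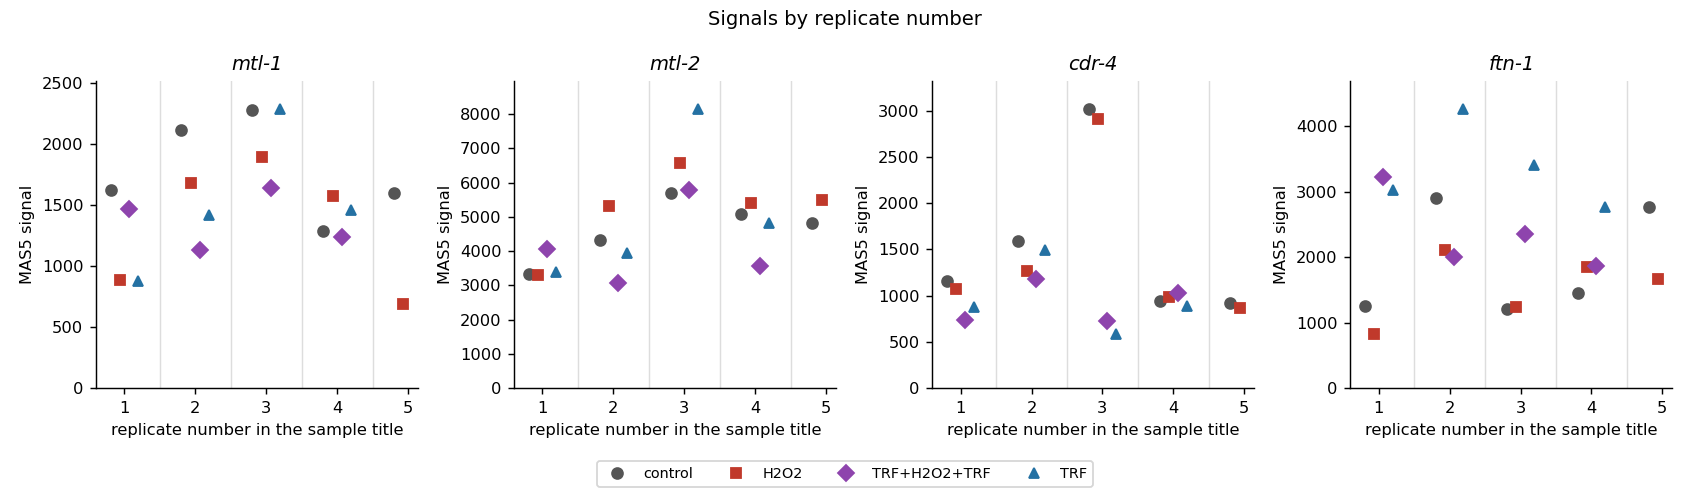
MAS5 signal (linear scale, starting at 0) of mtl-1, mtl-2, cdr-4 and ftn-1 by the replicate number in the sample title, with 1 marker per array and the shape and colour giving the group. Number 3 is the highest of each group for mtl-1 and mtl-2, and for cdr-4 it is at 3017 and 2908 in control and H2O2 and at 729 and 590.4 in TRF+H2O2+TRF and TRF.

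How far the signals went with the replicate number differed between the genes. Over numbers 1 to 4, which all groups share (16 arrays), the sum of squares of the log2 signal was divided between group, number and rest. For mtl-2, 69.2% went with the number and 9.16% with the group, and 501 of 13529 probe sets had a larger share for the number. For mtl-1 the shares were 49.1% and 13.8%, and 3280 probe sets had a larger share for the number. The medians over all tested probe sets were 34.8% for the number and 14.8% for the group, so a larger share for the number was not particular to the metallothioneins. The gene ftn-1 had the opposite division, with 57.3% for the group and 13.7% for the number, and 91 of 13529 probe sets had a larger share for the group.

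The group shares of the cdr genes lay between those of mtl-1 and ftn-1. The group took 29.8% of cdr-1, 22.3% of cdr-2 and 30.4% of cdr-4, and the number took 37.4%, 6.28% and 18.2%. For ftn-2, 66.4% went with neither. Of the 7 genes, mtl-1, mtl-2 and cdr-1 had a number share above the median of all probe sets, and the other 4 below it. What the numbers stand for is not given in the labels, and the division was computed after the values were seen, so it is a description.

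**Figure D4:**
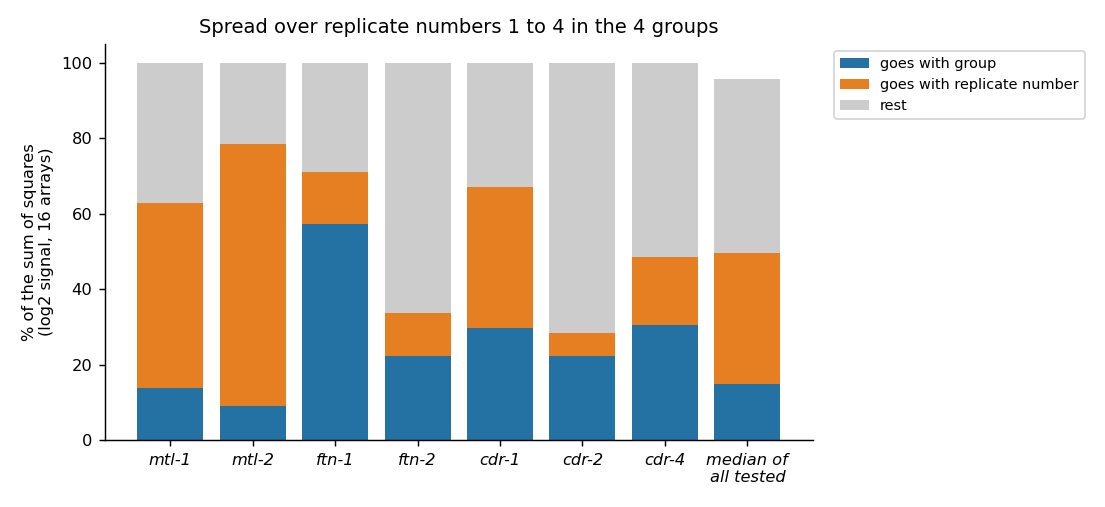
Share of the sum of squares of log2 signal, in percent, that goes with group, with replicate number or with neither, for each of the 7 genes and as the median of all 13529 tested probe sets (16 arrays, numbers 1 to 4). The bar of ftn-1 is mostly group (57.3%) and that of mtl-2 mostly number (69.2%), and the 3 medians were taken separately, so the last bar does not add up to the whole.

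Whether the genes varied together over the arrays was asked for each of their 21 pairs. Over the 18 arrays mtl-1 and mtl-2 had Pearson's r = 0.522 (permutation p = 0.0268) and Spearman's rho = 0.598 (permutation p = 0.0104). Adjusted over the 21 pairs of genes these became 0.248 and 0.218, so neither passed. Without the 2 arrays farthest from the median of mtl-1, r was 0.724. With each group centred on its own mean it was 0.636 (adjusted permutation p = 0.0939), and without the arrays numbered 5 it was 0.744 (adjusted permutation p = 0.0187). For all pairs of genes the permutations shuffled the arrays freely over groups and replicate numbers. They take no account of what arrays with equal numbers share, so these p-values may be too small. By r with mtl-1, mtl-2 stood at rank 625 of 13528 probe sets, and by r with mtl-2, mtl-1 stood at rank 365.

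The gene ftn-1 had a negative r with each of the 3 cdr genes. With cdr-1 it had r = -0.543 and rho = -0.507 (permutation p = 0.01996 and 0.0334, adjusted 0.248 and 0.301), and r was -0.494 without the 2 farthest arrays and -0.483 with each group centred on its mean. With cdr-2 it had r = -0.499 and rho = -0.486 (permutation p = 0.0354 and 0.0429, adjusted 0.248 and 0.301), and r was -0.399 without the 2 farthest arrays and -0.509 with groups centred. With cdr-4 r was -0.408 (permutation p = 0.0922, adjusted 0.387), and it moved to -0.646 without the 2 farthest arrays and to -0.220 with groups centred. By r with ftn-1, counted from the highest, cdr-1, cdr-2 and cdr-4 stood at ranks 13359, 13266 and 12951 of 13528 probe sets. Within the TRF group alone (n = 4), r with ftn-1 was positive for cdr-1 (0.356) and cdr-4 (0.567) and negative for cdr-2 (-0.913). Within each other group all were negative. The 2 ferritins had r = 0.103 with each other (permutation p = 0.683). In all, 0 of the 21 pairs passed after adjustment by Pearson's r and 0 by Spearman's rho.

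**Figure D5:**
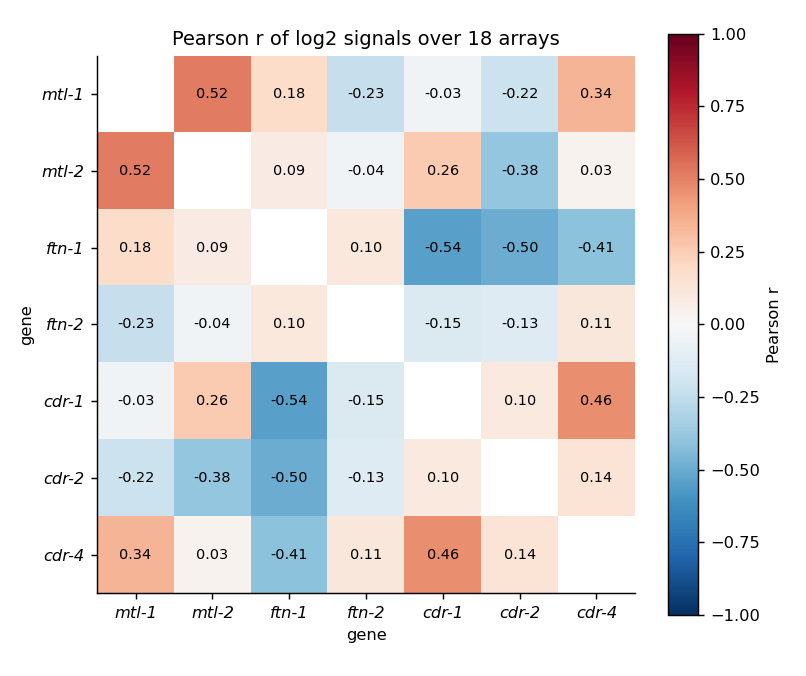
Pearson's r of the log2 signals for each of the 21 pairs of the 7 genes over the 18 arrays, with red for positive and blue for negative values. The pair of metallothioneins has the highest value and ftn-1 with cdr-1 the lowest, and 0 pairs passed after adjustment.

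Among all probe sets with 1 gene symbol, the genes most like each of these over the 18 arrays were named by Pearson's r, as a description. For ftn-1 they were H25K10.4 (r = 0.819) and spp-31 (0.793), a saposin-like gene, and without the 2 arrays farthest from the median of ftn-1 they had 0.844 and 0.626. For ftn-2 they were stha-3 (0.753) and cox-5A (0.743), a subunit of cytochrome c oxidase. For mtl-1 they were chmp-7 (0.822) and cee-1 (0.798), and for mtl-2 K03B8.4 (0.784) and ech-4 (0.747). For cdr-1 they were pigl-1 (0.833) and C33E10.5 (0.799), and for cdr-2 F53C11.1 (0.787) and F01D5.3 (0.735). For cdr-4 they were map-1 (0.866), a methionine aminopeptidase, and atg-3 (0.864), of the autophagy machinery. These 2 fell to 0.645 and 0.761 without the 2 farthest arrays. With cdr-4, 33 probe sets had r above 0.8, and with each of the other 6 genes at most 1 did.

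Genes that act beside these in metal biology were followed in 5 lists, of which 0 members passed in any comparison. Of 18 zinc genes, 15 were tested. In TRF against control, 10 of the 15 had a higher mean, with a median log2 fold change of 0.04, and the smallest p belonged to cdf-2 (0.43 ± 0.222, SE), which moves zinc into storage granules of the gut, and zipt-2.1 (0.18), of the ZIP family of zinc importers. In H2O2 against control 6 of 15 were higher (median -0.04), with zipt-7.2 at -0.20 and zipt-11 at -0.12. With TRF around H2O2, against H2O2 alone, 10 of 15 were higher (median 0.15), with zipt-7.2 at 0.24 and zipt-7.1 at 0.27.

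Of 9 further cadmium genes 5 were tested, and the ABC transporter gene mrp-1, which protects worms from cadmium, had the smallest p of the list in H2O2 and in TRF against control. Its log2 fold change was 0.51 ± 0.218 (SE) in H2O2 and 0.43 ± 0.178 in TRF (adjusted p = 1.0 and 0.995 in limma). Next were hmt-1, a transporter of metal-binding peptides, at -0.24 in H2O2, and pgp-5, a P-glycoprotein, at 0.40 in TRF. Between TRF+H2O2+TRF and H2O2, hmt-1 had 0.26 and cdr-6 had -0.17. The lists had medians of 0.00615, 0.10 and 0.00387 in these 3 comparisons, and 3 of 5 members were higher in each.

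Of 11 iron and heme genes 5 were tested. The gene hrg-7, which encodes a secreted protease that signals heme status, had -0.40 ± 0.160 (SE) in H2O2 against control (adjusted p = 1.0 in limma) and -0.19 in TRF against control. The frataxin gene frh-1 had 0.10 in H2O2. The aconitase gene aco-1, related to the iron regulatory proteins, had 0.18 in TRF and 0.20 in TRF+H2O2+TRF against H2O2, and the heme transporter gene hrg-1 had -0.32 in the last. Means were higher in 3, 2 and 3 of the 5 (medians 0.03, -0.03 and 0.06).

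Of 4 copper genes 3 were tested, and 1, 1 and 2 of them had a higher mean (medians -0.01, -0.05 and 0.03). The smallest p belonged to cutc-1 in each comparison (0.09, -0.06 and -0.16), followed by the copper pump gene cua-1 (-0.03) in H2O2, the copper chaperone gene cuc-1 (0.06) in TRF and cua-1 (0.07) in TRF+H2O2+TRF against H2O2.

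Of 10 regulators of these genes 7 were tested, and 6, 4 and 2 of them had a higher mean (medians 0.08, 0.05 and -0.07). In H2O2 the smallest p belonged to skn-1 (-0.26), a factor of the oxidative stress response, and mdt-15 (0.25), a subunit of the Mediator complex. In TRF it belonged to mdt-15 (0.32) and hsf-1 (0.19), the heat shock factor. Between TRF+H2O2+TRF and H2O2 it belonged to skn-1 (0.32) and elt-2 (-0.20), the intestinal GATA factor.

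Since these genes are known from the intestine, its markers were set beside them. All 10 intestine markers were measured and none was at 0. Their summed signal ran from 69612 to 85764 in control, from 80249 to 92747 in H2O2, from 72599 to 79457 in TRF+H2O2+TRF and from 70382 to 77234 in TRF. In TRF against control 2 of 10 had a higher mean (median log2 fold change -0.06), beside 0.90 for ftn-1 and -0.57 for cdr-2. Between TRF+H2O2+TRF and H2O2 also 2 of 10 were higher (median -0.14), beside 0.66 for ftn-1 and -0.62 for cdr-1. In this comparison the summed signal of every TRF+H2O2+TRF array lay below that of every H2O2 array, as it did for cdr-1. The sum weighs the brightest markers most. The mean log2 signal of the 10 markers overlapped, at 11.29 to 12.01 in H2O2 and 11.47 to 11.63 in TRF+H2O2+TRF. Of the 10 markers 2 had an unadjusted p under 0.05 in limma there, against 2.23% of all probe sets. In H2O2 against control 9 of 10 were higher (median 0.13), beside 0.22 for ftn-2. No marker passed in these comparisons, and their part in the results was not tested. The summed signal of 6 body wall muscle markers ran from 9329 to 15122 in control, from 14206 to 20338 in H2O2, from 11131 to 19746 in TRF+H2O2+TRF and from 9164 to 14485 in TRF. In H2O2 against control all 6 had a higher mean (median 0.50), beside the 0.22 of ftn-2. An unadjusted p under 0.05 in limma was found for 4 of them, against 2.34% of all probe sets. All 6 were also higher in TRF+H2O2+TRF against control, 3 of them with an unadjusted p under 0.05 (2.84% of all probe sets). In TRF+H2O2+TRF against TRF all 6 were higher too, 1 of them under 0.05 (1.46%). Between TRF+H2O2+TRF and H2O2 2 of 6 were higher (median -0.04). Their part in the results was not tested either. That of 8 sperm markers, of which 2 passed the filter on low signals, ran from 391 to 1331, 476 to 1356, 595 to 1067 and 506 to 1656 in the same order.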

How the data were processed

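Total RNA of 18 samples was measured on Affymetrix arrays. The authors deposited intensity values on a linear scale for 22625 probe sets, made with MAS5 and the Affymetrix Expression Console per the submitters' processing notes, which give no version. No source used here names the genome build of the probes. Groups and replicate numbers came from the sample titles, and 0 columns were left unused.

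Signals were taken as log2(signal + 1). After 77 Affymetrix control probe sets were left out, the 13529 of 22548 probe sets with a mean log2 signal at or above the 40th percentile were tested with limma 3.58.1 in R 4.3.3 (two-sided lmFit and eBayes fits with the variance trend on, each on the arrays of the groups it compares, Benjamini-Hochberg over all 13529). The interaction and the average over both TRF comparisons used all 18 arrays. All 10 probe sets of the 7 genes passed the filter. The fit was tested on simulated data in which the arrays were independent. That test cannot show how an effect shared by equal replicate numbers bears on the fit. Correlations used 100000 permutations of all arrays, which keep neither groups nor replicate numbers together.

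The members, lists and tests were chosen with earlier results of these data known. Named genes were the members, the 2 most like each, and of each metal list every gene past the threshold and the 2 with the smallest p in the 3 comparisons of the series design (H2O2 against control, TRF against control, TRF+H2O2+TRF against H2O2). Lists covered zinc, cadmium, iron and heme, copper and regulators, and markers of intestine, sperm, oocytes, muscle, neurons and hypodermis.

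Replicate numbers were checked as pairs by correlating residuals of equal numbers. This gave r from 0.280 to 0.681 for control with H2O2 and from 0.350 to 0.686 for TRF+H2O2+TRF and TRF, which were taken as paired from the data. Between TRF and control it gave -0.224 to 0.541, between TRF+H2O2+TRF and H2O2 0.0216 to 0.327, and between TRF+H2O2+TRF and control -0.147 to 0.494. Alternatives covered the filter, normalization, pseudocount, variance model, weights per array, the replicate block, the methods' t-test (unpaired), further probe sets and arrays left out.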

Additional observations from a re-analysis of the deposited data

How the results depend on the processing

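Over the 7 genes and 7 tests there were 49 results and 1008 alternatives, of which 965 kept the sign and 43 turned it. In 0 of them did a gene pass, and the lowest adjusted p was 0.140, for ftn-1 in TRF against control with the replicate number as a block. With array weights cdr-4 was at 0.0475 in H2O2 against control and at 0.0636 in TRF+H2O2+TRF against TRF, and mtl-1 at -0.0771 in TRF+H2O2+TRF against H2O2. In the last comparison mtl-1 was at -0.0985 with the replicate block and without the arrays numbered 5, and cdr-2 at -0.0252 after quantile normalization. Centring arrays on their medians put TRF against control at -0.0349 for mtl-2 and -0.00677 for ftn-2, and TRF+H2O2+TRF against TRF at 0.0110 for ftn-2. Other probe sets gave ftn-2 0.0427 in TRF+H2O2+TRF against H2O2, 0.155 in TRF+H2O2+TRF against TRF and 0.0467 in the average over both TRF comparisons (0.0592 after quantile normalization), and mtl-2 0.0600 in TRF+H2O2+TRF against control. With single arrays left out, some signs turned, and the range for cdr-4 in H2O2 against control was -0.398 to 0.183. For TRF against control they were mtl-2 -0.192 to 0.230 and cdr-1 -0.144 to 0.198. For TRF+H2O2+TRF against H2O2 they were mtl-1 -0.0985 to 0.265 and cdr-2 -0.165 to 0.319. For TRF+H2O2+TRF against TRF they were mtl-1 -0.309 to 0.153, ftn-2 -0.0813 to 0.0549 and cdr-4 -0.226 to 0.220. In the interaction the range of cdr-4 was -0.202 to 0.379, and in the average over both TRF comparisons mtl-1 had -0.200 to 0.0308 and ftn-2 -0.0611 to 0.00695.

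Over all probe sets, 1 passed in TRF against control, 2 with median centring, 0 by the methods' t-test and 1 to 2 with single arrays left out. In TRF+H2O2+TRF against TRF 1 passed with the replicate block in place of 0. With single arrays left out 0 to 1 passed in TRF+H2O2+TRF against control and in the average over both TRF comparisons. By permutations that ignore the replicate number, 1 of the 21 pairs of genes passed without the arrays numbered 5 (mtl-1 with mtl-2). With all 18 arrays 0 passed. The cause of these changes was not tested, beyond the arrays left out. The pairing by replicate number changed no call of the 7 genes after adjustment. An unadjusted p under 0.05 was lost in 1 of 9 fits without 1 array for ftn-1 and for cdr-1 in TRF+H2O2+TRF against H2O2, and in 2 of 8 for ftn-1 in TRF+H2O2+TRF against TRF. Groups of 4 and 5 arrays limit all of these values, and a p that missed the threshold does not show that a gene was alike in both groups.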

Other observations

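The remaining tissue markers were measured in the same arrays, and none passed in any comparison. The summed signal of 7 oocyte markers ran from 65493 to 74341 in control, 65280 to 82375 in H2O2, 60915 to 71498 in TRF+H2O2+TRF and 65259 to 74547 in TRF, and 7 of 7 had a higher mean in H2O2 against control (median log2 fold change 0.13, beside 0.22 for ftn-2). In TRF+H2O2+TRF against H2O2 0 of 7 had a higher mean (median -0.19), and the part of these markers in the results was not tested. That of 5 neuronal markers ran from 5969 to 8312, 6330 to 7589, 5021 to 8074 and 5233 to 7838 in the same order. That of 4 hypodermal markers ran from 16688 to 23341, 19503 to 25528, 17078 to 21910.1 and 17347 to 25062.

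Control replicate 3 was the highest control array for mtl-1, mtl-2, cdr-1 and cdr-4 and the lowest for ftn-1 and ftn-2. In 0 of the 40 sets of 4 or 5 arrays (10 probe sets in 4 groups) did an array stand apart by Dixon's criterion.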
